A study of Mus musculus with 6 samples.

Results

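Rn7sk and 7 other noncoding RNAs made by RNA polymerase III were followed in mammary epithelial cells of mice with and without Glis2, the gene of a Krüppel-like zinc finger transcriptional repressor. The 8 symbols are Rn7sk, Rpph1, Rprl1, Rprl2, Rprl3, Rmrp, Rn7s1 and Rn7s2, out of 54418 genes in the count file. They were chosen on the same comparison of genotypes that is described here, so their values are given as a description and without a test. Of the 8 symbols, 7 had a row in the count file and made up 9 rows, because Rmrp and Rprl1 each have 2 gene records. A filter on low counts was passed by 5 of the 9 rows, those of Rn7sk, Rpph1, Rprl3, Rn7s1 and the longer Rmrp record.

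The cells were sorted by FACS from the mammary glands of 4-week-old female C57BL/6 mice, after staining with antibodies against TER-119, CD31, CD45, CD24 and CD49f. There were 3 libraries of Glis2+/+ (wild-type) cells and 3 of Glis2-/- cells, from mice with a germline knockout. No treatment is named for either genotype. With 3 mice per genotype in the study, each library is taken as 1 mouse.

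RNA polymerase III makes short RNAs that are needed in every cell. 7SK RNA, the product of Rn7sk, holds the kinase P-TEFb in an inactive complex and thereby restrains the elongation of RNA polymerase II transcripts. The RNAs of RNase P (Rpph1) and RNase MRP (Rmrp) are the catalytic cores of related enzymes that trim transfer RNA and ribosomal RNA precursors, and 7SL RNA (Rn7s1 and Rn7s2) is the scaffold of the signal recognition particle, which brings ribosomes making secreted proteins to the endoplasmic reticulum.

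RNA sequences of Rn7sk, Rpph1, Rprl3 and Rmrp are shown because they bear on which reads could be assigned to which gene. All were read, 5′ to 3′, from the GENCODE M21 transcripts of the GRCm38 (mm10) assembly, with T written for U. In Rn7sk (chr9:78175303-78175633, minus strand, a single RNA of 331 bases, of which bases 1 to 300 are shown), capitals mark the letters GATC. In 7SK RNA these letters read GAUC, and a GAUC repeat in its 5′ hairpin is known as the binding site of the inhibitor HEXIM1. The motif occurred 3 times, starting at bases 13, 42 and 64, and it reads the same on both strands. At least as many occurrences were present in 9.06% of the 4745 annotated RNAs of 301 to 361 bases.
Rn7sk: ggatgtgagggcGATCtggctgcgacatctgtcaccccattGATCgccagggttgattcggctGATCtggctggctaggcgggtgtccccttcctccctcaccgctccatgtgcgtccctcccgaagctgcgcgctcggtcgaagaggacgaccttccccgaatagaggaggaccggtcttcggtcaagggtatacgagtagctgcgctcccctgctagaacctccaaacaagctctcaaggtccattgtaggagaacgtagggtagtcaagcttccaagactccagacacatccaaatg
Rn7s1 and Rn7s2, both on chromosome 12, are named without their sequence. Rn7s2 was identical to Rn7s1 in 300 of 300 bases and had no row of its own, so the row of Rn7s1 stood for both genes. The same was seen for the annotation at large. Of 429 groups of genes with 1 identical RNA each, 419 (97.7%) had exactly 1 row in the count file.

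Rpph1 (chr14:50807449-50807767, minus strand, 319 bases) and Rprl3 (chr8:3803069-3803358, minus strand, 290 bases), a gene for an RNase P-like RNA, are shown side by side because their sequences are closest among the RNAs that had separate rows and passed the filter. Bases 1 to 257 of Rpph1 aligned with bases 1 to 236 of Rprl3, with 221 identical bases, 15 mismatches and 21 bases in gaps. Capitals mark the bases of each RNA that differ from the other, 36 in Rpph1 and 15 in Rprl3.
Rpph1: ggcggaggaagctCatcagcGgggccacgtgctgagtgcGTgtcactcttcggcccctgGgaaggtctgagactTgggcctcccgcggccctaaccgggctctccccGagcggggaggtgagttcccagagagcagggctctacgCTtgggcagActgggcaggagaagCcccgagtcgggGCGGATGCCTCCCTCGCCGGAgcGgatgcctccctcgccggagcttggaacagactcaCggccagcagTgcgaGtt
Rprl3: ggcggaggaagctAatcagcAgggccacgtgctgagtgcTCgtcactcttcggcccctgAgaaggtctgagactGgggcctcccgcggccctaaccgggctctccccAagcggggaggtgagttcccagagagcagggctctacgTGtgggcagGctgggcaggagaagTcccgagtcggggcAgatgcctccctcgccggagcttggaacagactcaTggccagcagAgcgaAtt
The longest identical run was 37 bases. Of the 289 stretches of 31 bases in Rpph1, 13 also occurred in Rprl3, so nearly all stretches of that length told these genes apart. The stretches of Rpph1 shared with Ccnb1ip1, a gene for an E3 ligase of meiotic crossing-over that overlaps Rpph1 on the same strand over 284 bases, were 203 of 289. Ccnb1ip1 itself had between 3 and 33 counts per library.

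Rmrp (chr4:43492783-43493063, minus strand, 281 bases) is shown because the annotation holds it as 2 nested records, and the capitals mark the 10 bases that lie outside the shorter one.
Rmrp: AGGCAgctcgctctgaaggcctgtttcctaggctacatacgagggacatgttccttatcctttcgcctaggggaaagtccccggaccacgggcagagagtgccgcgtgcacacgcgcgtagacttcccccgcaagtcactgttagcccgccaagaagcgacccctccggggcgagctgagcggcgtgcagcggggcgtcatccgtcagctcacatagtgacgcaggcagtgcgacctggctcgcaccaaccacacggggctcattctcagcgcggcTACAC
The longer Rmrp record received nearly all counts. The shorter had 0, 3 and 2 counts in Glis2+/+ and 17, 7 and 30 counts in Glis2-/- cells. Rmrp, Rn7sk and Rn7s1 had no identical run over 10 bases with one another or with the RNase P RNAs.

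Total counts lay between 24996524 and 31393917 per library, and the counts were scaled to library size as counts-per-million (CPM) values with TMM factors of 0.963 to 1.02. By edgeR's quasi-likelihood test, 0 of 21236 genes (0%) passed both thresholds for a call, which were 0.05 for the adjusted p and 0.58 for the size of the log2 fold change. The lowest adjusted p over these genes was 0.392, and 1130 genes had an unadjusted p under 0.05. DESeq2 called 45 of 27248 genes (0.165%), and limma on the log2 TPM values called 0. Glis2 transcripts were lower but not absent in Glis2-/- cells, at 21.5 ± 1.83 CPM in Glis2+/+ and 14.5 ± 3.81 CPM in Glis2-/- cells (SD, n = 3 each), with a log2 fold change of -0.57 ± 0.22 (SE, edgeR adjusted p = 0.906). Where the deletion lies within Glis2 is not given in the sources used here. All 6 epithelial markers were present in every library. Their sum overlapped between genotypes, at 3482 to 5747 CPM in Glis2+/+ and 3746 to 5613 CPM in Glis2-/- libraries. The log2 fold change was positive for 4 of them and negative for 2, with 0 called by edgeR or DESeq2. Krt8 was at 1566 and 1583 CPM on average. Krt14 was at 434 ± 152 and 595 ± 57.6 CPM (0.45 ± 0.22, edgeR adjusted p = 0.906).

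Counts of Rn7sk were 33658, 35119 and 26337 in the 3 Glis2+/+ libraries, against 44277, 68668 and 81275 in the 3 Glis2-/- libraries. Scaled to library size, these were 1091, 1229 and 1011 CPM in Glis2+/+ and 1769, 2292 and 2597 CPM in Glis2-/- cells. Every Glis2-/- library lay above every Glis2+/+ library. The means were 1110 ± 111 and 2220 ± 419 CPM (SD, n = 3 each), a 2.00-fold higher level in Glis2-/- cells, or 1.00 on the log2 scale. Leaving out 1 library at a time gave log2 fold changes of 0.86 to 1.14. In bulk RNA from sorted cells, more cells of a type that is rich in an RNA and more of that RNA per cell cannot be told apart.

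Rpph1, the RNase P RNA, had 223, 239 and 227 CPM in the Glis2+/+ libraries and 319, 405 and 486 CPM in the Glis2-/- libraries. The genotypes did not overlap, and the Glis2+/+ libraries lay close together while the Glis2-/- libraries were spread. The means were 230 ± 8.64 and 403 ± 83.5 CPM, a log2 fold change of 0.81 (0.64 to 0.95 with 1 library left out at a time). Rprl3 had 54.2, 73.3 and 61.2 CPM in the Glis2+/+ libraries and 94.9, 114 and 149 CPM in the Glis2-/- libraries. Again no Glis2-/- library fell within the range of the Glis2+/+ libraries. The Rprl3 means were 62.9 ± 9.68 and 120 ± 27.7 CPM, a log2 fold change of 0.93.

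The other copies of the RNase P RNA were nearly silent. Rprl2 (chr3:22251374-22251663, plus strand) had 7, 8 and 11 counts in Glis2+/+ and 17, 9 and 10 counts in Glis2-/- libraries. The longer Rprl1 record (chr6:69326844-69327170, minus strand) had 20 counts in Glis2+/+ replicate 2 and 0 in every other library, and the shorter had between 0 and 16 counts. Rprl1, Rprl2 and Rprl3 were 90.3% to 92.1% identical to one another, so single counts of these rows are uncertain. With Rpph1 and the 3 Rprl genes summed before the fit, the log2 fold change was 0.84.

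Rmrp, the RNA of RNase MRP, had 62.5, 82.0 and 78.0 CPM in the Glis2+/+ libraries and 103, 88.2 and 108 CPM in the Glis2-/- libraries. The genotypes did not overlap, but Glis2-/- replicate 2 lay only just above the highest Glis2+/+ library. The means were 74.1 ± 10.3 and 99.5 ± 10.1 CPM, a log2 fold change of 0.42. With both records summed, it was 0.43.

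Rn7s1, the 7SL RNA, had 931, 1187 and 1380 CPM in the Glis2+/+ libraries and 1681, 1270 and 1700 CPM in the Glis2-/- libraries. Here the genotypes overlapped, since Glis2-/- replicate 2 lay below Glis2+/+ replicate 3. The means were 1166 ± 225 and 1550 ± 243 CPM, a log2 fold change of 0.41 (0.25 without Glis2+/+ replicate 1 and 0.55 without Glis2+/+ replicate 3). Among the 5 RNAs that passed the filter, the log2 fold change was positive for 5, with a median of 0.81, and 4 had all 3 Glis2-/- libraries above all 3 Glis2+/+ libraries. Over all genes tested, the median was 0.01, and 1324 of 21236 genes (6.23%) had all 3 Glis2-/- libraries above all 3 Glis2+/+ libraries. Because the RNAs were chosen on this comparison, nothing is read from these counts.

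**Figure D1:**
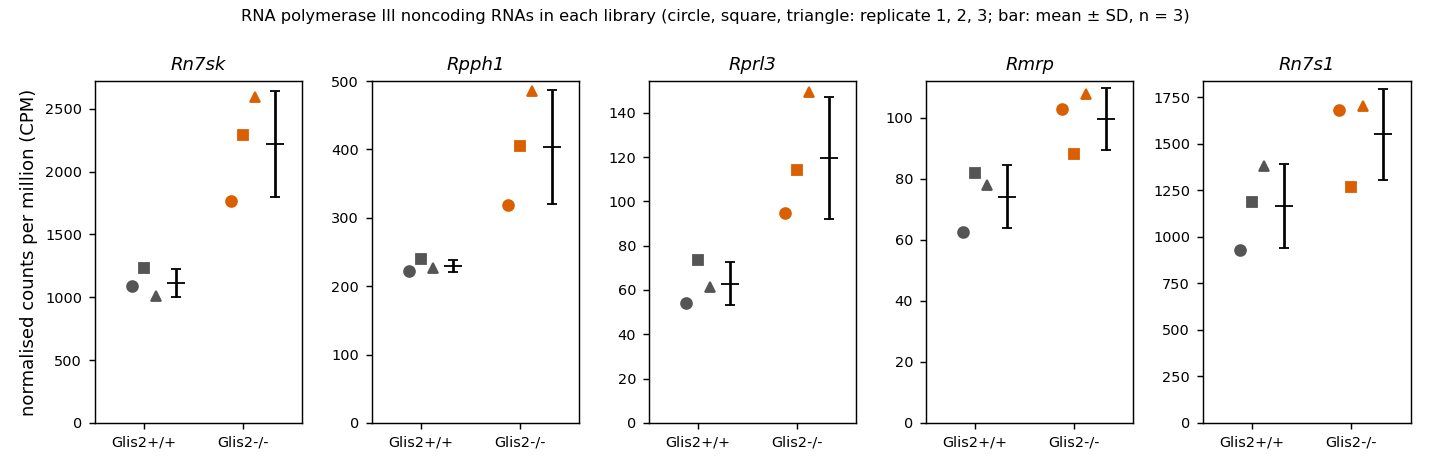
Normalised counts (CPM, vertical axes from 0) of Rn7sk, Rpph1, Rprl3, Rmrp and Rn7s1 in the 3 Glis2+/+ and 3 Glis2-/- libraries, with a marker shape for each replicate number and the mean ± SD beside the points. The genotypes separate for Rn7sk, Rpph1, Rprl3 and Rmrp, while Glis2-/- replicate 2 of Rn7s1, at 1270 CPM, lies among the Glis2+/+ libraries.

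Per kilobase of annotated RNA, the order of levels in Glis2+/+ cells was Rn7s1 (3887 ± 751 CPM per kilobase), Rn7sk (3354 ± 334), Rpph1 (720 ± 27.1), Rmrp (264 ± 36.7) and Rprl3 (217 ± 33.4). In Glis2-/- cells it was Rn7sk (6706 ± 1265 CPM per kilobase), Rn7s1 (5167 ± 810), Rpph1 (1264 ± 262), Rprl3 (412 ± 95.4) and Rmrp (354 ± 36.1). Within each genotype, the ranges of Rn7sk and Rn7s1 overlapped, and so did those of Rmrp and Rprl3. Library by library, Rmrp lay above Rprl3 in all 3 Glis2+/+ libraries and in Glis2-/- replicate 1, and below it in Glis2-/- replicates 2 and 3. Rn7sk lay above Rn7s1 in Glis2+/+ replicate 1 and Glis2-/- replicates 2 and 3, and below it in the others. The levels of 7SK and 7SL were above that of Rpph1, and Rpph1 above those of Rmrp and Rprl3, in every library.

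The RNAs were also compared with one another within each library, which removes the scaling to library size. The ratio of Rn7sk counts to Rpph1 counts was 4.90, 5.14 and 4.45 in the Glis2+/+ libraries and 5.55, 5.67 and 5.34 in the Glis2-/- libraries. These means, 4.83 ± 0.347 and 5.52 ± 0.163, differed less than the levels of either RNA, although the genotypes did not overlap. The ratio of Rprl3 to Rpph1 counts was 0.273 ± 0.0317 in Glis2+/+ and 0.296 ± 0.0126 in Glis2-/- libraries, and the genotypes overlapped. The ratio of Rn7s1 to Rmrp counts likewise overlapped, at 15.7 ± 1.75 and 15.5 ± 1.01. Across these pairs the ratio was less even. Rn7sk to Rn7s1 was 1.17, 1.04 and 0.732 in Glis2+/+ and 1.05, 1.81 and 1.53 in Glis2-/- libraries, and Rpph1 to Rmrp was 3.13 ± 0.375 and 4.07 ± 0.836. Both of these ratios overlapped between genotypes, with Glis2-/- replicate 1 in the range of the Glis2+/+ libraries.

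**Figure D2:**
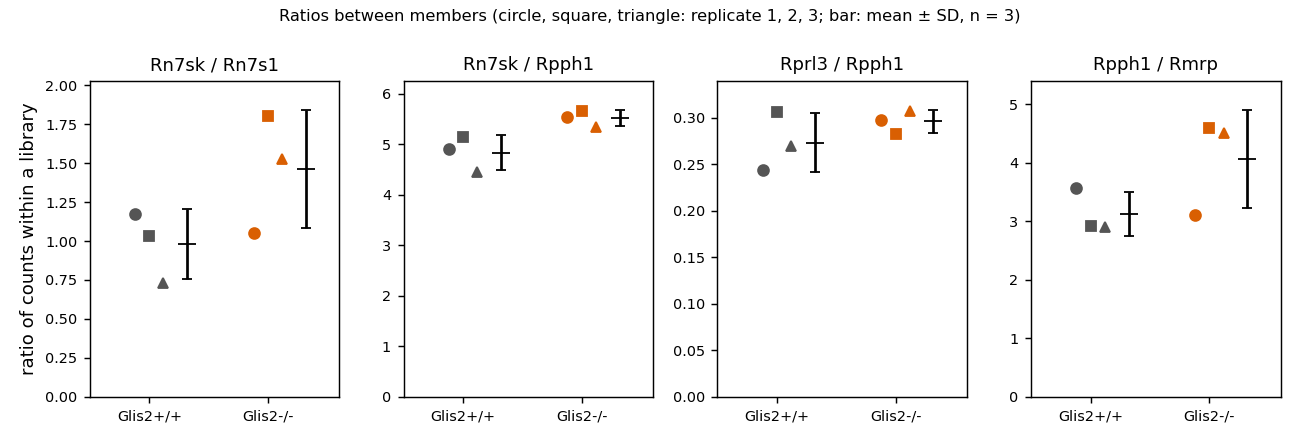
Ratios of counts between pairs of RNAs within each library (vertical axes from 0, no unit), by genotype, with a marker shape for each replicate number and the mean ± SD (n = 3) beside the points. Rn7sk over Rpph1 stays between 4.45 and 5.67, whereas Rn7sk over Rn7s1 runs from 0.732 to 1.81.

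The profile over the 6 libraries was compared as the root mean square (RMS) difference between log2 CPM values, each centred on its own mean. Rprl3 (RMS difference 0.116) and Rpph1 (0.117) were closest to Rn7sk, nearer than any of the 9921 genes outside the 8 symbols with a mean of at least 10 CPM. Rmrp (0.355) and Rn7s1 (0.418) were farther away. The genes nearest to Rn7sk outside the 8 symbols were Tenm2, a teneurin of the cell surface (0.165), Scarna2, a guide RNA of Cajal bodies (0.188), the orphan receptor gene Adgrg2 (0.198), Gm22009, annotated as a small Cajal body RNA (0.200), the LIF receptor gene Lifr (0.218) and the matrix protein gene Ltbp2 (0.220). Scarna2 had 24.1, 25.3 and 15.8 CPM in Glis2+/+ and 33.6, 51.7 and 45.3 CPM in Glis2-/- libraries. Such likeness follows the difference between genotypes on which Rn7sk was chosen, and no test was made of it.

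**Figure D3:**
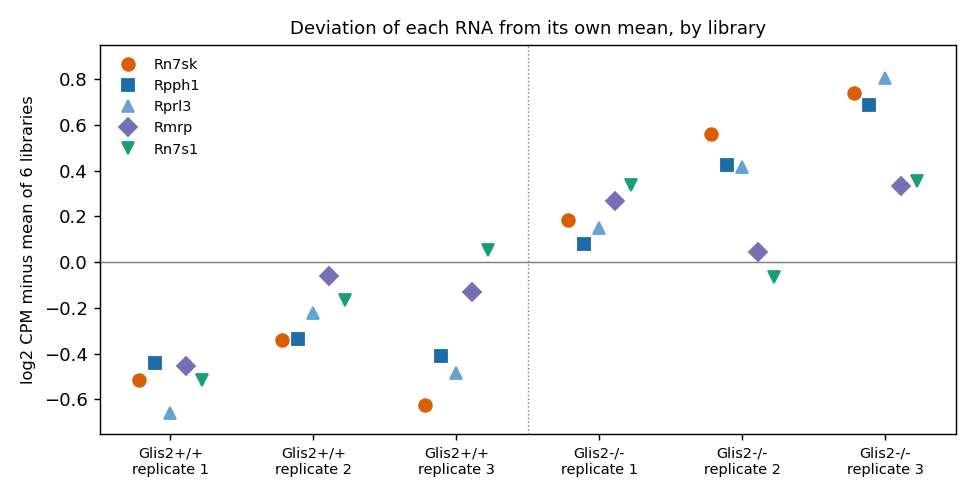
Deviation of log2 CPM from the mean of the 6 libraries (vertical axis, log2 units) for each RNA in each library (horizontal axis, grouped by genotype). Rn7sk, Rpph1 and Rprl3 move closely together and are highest in Glis2-/- replicate 3, while Rmrp and Rn7s1 lie nearer to their means in Glis2-/- replicate 2.

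Genes that share sequence with Rn7sk and Rn7s1 received few counts. Rn7sk shared a stretch of 31 bases with 25 other genes, which together received 1.52 to 1.86 counts per 100 Rn7sk counts in each library. For Rn7s1, 17 other genes shared such a stretch, 14 of them with a row, and these received 1.39 to 2.05 counts per 100. The 4 other genes that shared a stretch with Rpph1 received 24.6 to 30.98 counts per 100, most of them in Rprl3. With all sharing genes summed into Rn7sk, Rn7s1 and Rpph1, which leaves Rprl3 without a row of its own, the median log2 fold change was 0.63.

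Genes beside the RNAs were read from the fit over all genes. Rps29, a ribosomal protein gene 109 bases from Rn7s1 on the opposite strand, had a log2 fold change of 0.24 ± 0.12 (SE, edgeR adjusted p = 0.907). Parp2, a DNA repair gene 74 bases from Rpph1 on the opposite strand, was at -0.16 ± 0.16 (adjusted p = 0.950). Ccdc107, which overlaps Rmrp on the opposite strand over 164 bases, was at 0.13 ± 0.21 (adjusted p = 0.975). C920006O11Rik, a noncoding RNA gene 281 bases from Rn7sk on the opposite strand, was at 0.09 ± 0.53 (adjusted p = 0.994). None of these passed the test.

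The protein partners of 7SK were tested as a list of 7 genes. By edgeR 0 of 7 were called and by DESeq2 0, and 1 had an unadjusted p under 0.05. The log2 fold change was positive for 6 and negative for 1, with a median of 0.05. Of the 7, 2 had every Glis2-/- library above every Glis2+/+ library, against 6.23% of all genes tested. In 1 gene every Glis2-/- library lay below, against 5.5% of all genes tested. Hexim1, whose protein inhibits P-TEFb when bound to 7SK, had 64.4, 65.5 and 67.5 CPM in Glis2+/+ and 91.4, 75.1 and 79.7 CPM in Glis2-/- libraries. These did not overlap, with a log2 fold change of 0.32 ± 0.11 (SE, edgeR adjusted p = 0.906) and of 0.12 on log2 TPM values. Larp7, whose protein binds the 3′ end of 7SK and stabilises it, had 64.1, 65.98 and 57.6 CPM in Glis2+/+ and 44.5, 55.7 and 55.5 CPM in Glis2-/- libraries. Its log2 fold change was -0.27 ± 0.13 (adjusted p = 0.906), with the opposite sign to that of Rn7sk. Every Glis2-/- library of Larp7 lay below every Glis2+/+ library. Hexim2, the paralogue of Hexim1, was at 0.37 ± 0.47, and Ccnt1, a cyclin of P-TEFb, at 0.01 ± 0.12, and the genotypes overlapped for both.

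The list of RNase P and RNase MRP protein genes held 11 genes, of which 10 were tested and 0 called by edgeR or DESeq2, with 1 at an unadjusted p under 0.05. The log2 fold change was positive for 4 and negative for 6, with a median of -0.02. Rpp40, a protein subunit of both enzymes, had 143, 144 and 113 counts in Glis2+/+ and 80, 79 and 59 counts in Glis2-/- libraries, at -0.86 ± 0.32 (edgeR adjusted p = 0.906). On log2 TPM values Rpp40 was at -0.30. Pop1, the largest subunit, was at -0.43 ± 0.24 (adjusted p = 0.920). Both were lower in every Glis2-/- library than in any Glis2+/+ library, as were 1167 of all 21236 genes tested (5.5%). Rpp14 was at 0.12 ± 0.21 and Rpp25l at 0.52 ± 0.35.

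Among 10 protein genes of the signal recognition particle and its receptor, 0 were called by edgeR or DESeq2 and 1 had an unadjusted p under 0.05, with 5 positive and 5 negative log2 fold changes and a median of -0.03. Srp54a, a copy of the gene for the GTPase that binds signal peptides, had 77.0 ± 8.03 CPM in Glis2+/+ and 101 ± 2.83 CPM in Glis2-/- libraries. Its log2 fold change was 0.39 ± 0.11 (edgeR adjusted p = 0.906), and the genotypes did not overlap. Of the 10 genes, 1 had every Glis2-/- library above every Glis2+/+ library, against 6.23% of all genes tested. Reads of Srp54a, Srp54b and Srp54c, which are near-identical copies, may have been split between them. Srprb, the membrane anchor of the receptor, was at 0.29 ± 0.20, Srp19 at -0.18 ± 0.15 and Srp9, which binds the Alu end of 7SL, at -0.15 ± 0.14.

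The polymerase itself was measured through 18 genes of RNA polymerase III subunits, some of which it shares with other polymerases. By edgeR and DESeq2, 0 of 18 were called, and edgeR gave 0 at an unadjusted p under 0.05. The log2 fold changes were positive for 10 and negative for 8, with a median of 0.03. The lowest were those of Polr2k (-0.35 ± 0.24, SE) and Polr3k (-0.22 ± 0.18), and the highest those of Crcp (0.22 ± 0.26) and Polr2f (0.15 ± 0.18). Of 20 genes for factors that recruit or restrain the polymerase or bind its transcripts, again 0 were called by either tool, and 0 had an unadjusted p under 0.05 by edgeR. Their log2 fold changes were positive for 9 and negative for 11, with a median of -0.03. Gtf3c5, a subunit of TFIIIC, was at 0.29 ± 0.19, Snapc1, a subunit of the complex that binds promoters of the Rn7sk type, at 0.22 ± 0.20, Gtf3a, the factor of 5S RNA genes, at -0.27 ± 0.18 and Snapc5 at -0.27 ± 0.26.

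Other RNAs made by RNA polymerase III were a list of 187 genes, most of them copies of the 5S ribosomal RNA gene, of which 20 passed the filter. By edgeR and DESeq2 0 of 20 were called, and edgeR gave 0 at an unadjusted p under 0.05, with a smallest adjusted p of 0.941. The log2 fold change was positive for 15 and negative for 5, with a median of 0.17 and a range of -0.56 to 0.72. This median depended on single libraries, at 0.034 without Glis2+/+ replicate 1, 0.063 without Glis2-/- replicate 3, 0.30 without Glis2-/- replicate 2 and 0.38 without Glis2+/+ replicate 3, and was 0.0019 on log2 TPM values. Bc1, a cytoplasmic RNA that represses translation, had 7.42 ± 0.259 CPM in Glis2+/+ and 7.67 ± 1.07 CPM in Glis2-/- libraries (log2 fold change 0.05 ± 0.22). The Y RNAs, which bind the Ro60 protein, were at 0.13 ± 0.29 (Rny3) and 0.36 ± 0.47 (Rny1), and the vault RNA Vaultrc5 was at 0.32 ± 0.36. The most abundant 5S copy, n-R5s124, had 84.8 ± 21.2 and 96.1 ± 17.1 CPM (0.18 ± 0.20). The next copies by level were n-R5s115 (0.21 ± 0.28), n-R5s56 (0.42 ± 0.44), n-R5s109 (-0.30 ± 0.43), n-R5s102 (0.60 ± 0.46) and n-R5s156 (0.23 ± 0.55). Only n-R5s102, at 1.12 ± 0.152 and 1.70 ± 0.360 CPM, had all Glis2-/- libraries above all Glis2+/+ libraries among the 20, against 6.23% of all genes tested. The 5S copies share most of their sequence, so the split of reads among them is uncertain, and most of these RNAs were far less abundant than Rn7sk.

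Short nuclear RNAs made by RNA polymerase II were listed beside these, and 7 passed the filter, with 0 called by edgeR or DESeq2, 1 at an unadjusted p under 0.05 and a median log2 fold change of 0.17 (0.092 without Glis2+/+ replicate 1, 0.40 without Glis2+/+ replicate 3). U11 and U12, the small nuclear RNAs of the minor spliceosome, did not overlap between genotypes and did not pass the test, and 2 of 7 RNAs here and 6.23% of all genes tested had every Glis2-/- library above every Glis2+/+ library. Rnu11 had 24, 45 and 40 counts in Glis2+/+ and 50, 61 and 92 counts in Glis2-/- libraries (log2 fold change 0.84 ± 0.47, edgeR adjusted p = 0.920). Rnu12 had 68, 73 and 63 counts in Glis2+/+ and 112, 104 and 145 counts in Glis2-/- libraries (0.81 ± 0.31, adjusted p = 0.906). Rnu3a (-0.03 ± 1.51) and Rnu5g (-1.40 ± 1.44) had large errors. Rnu5g was at -0.82 without Glis2-/- replicate 2 and at -3.92 with a replicate block. Rnu5g had 0 counts in Glis2-/- replicates 1 and 2, and Rnu3a in Glis2+/+ replicate 2 and Glis2-/- replicate 1. A second Rnu3a record had counts only where the first had 0, so the value of either record alone is uncertain.

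**Figure D4:**
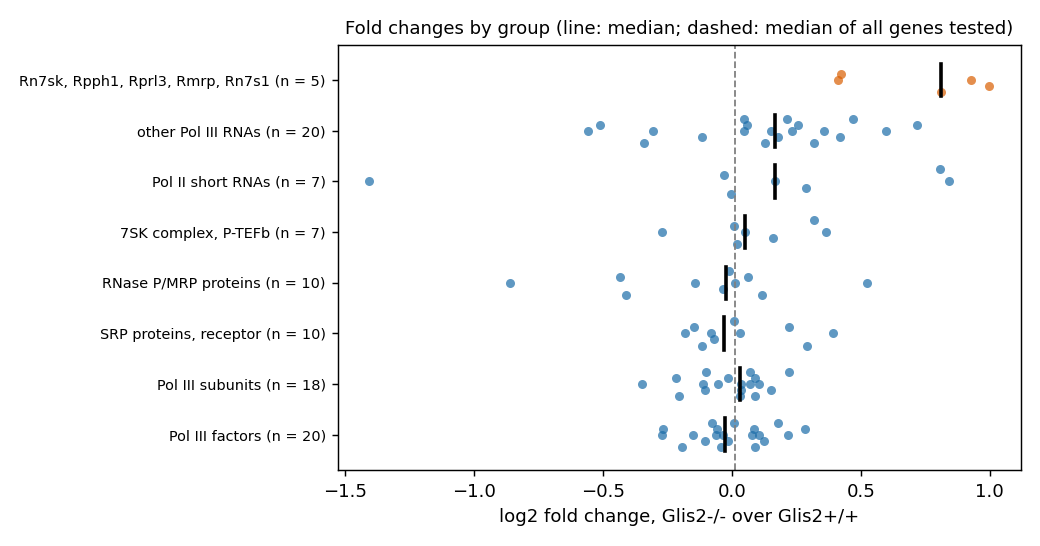
Log2 fold change, Glis2-/- over Glis2+/+ (horizontal axis), of each tested gene in the 8 groups of RNAs and protein genes. Points are genes, black lines are group medians and the dashed line is the median of all genes tested (0.01). The 5 RNAs at the top, which were chosen on this comparison, have a median of 0.81, and the other groups have medians between -0.03 and 0.17.

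Other classes of RNA and cell type markers were measured in the same libraries. Leaving out the 8 symbols alone, the log2 fold change was positive for 64 of 84 small nucleolar RNAs (median 0.36), 13 of 15 small Cajal body RNAs (median 0.42), 44 of 63 small nuclear RNAs (median 0.25), 27 of 39 genes of the class misc_RNA (median 0.38) and 34 of 54 microRNA genes (median 0.19), against a median of 0.01 over all genes. Summed small nuclear RNA overlapped between genotypes, at 286 to 450 CPM in Glis2+/+ and 396 to 551 CPM in Glis2-/- libraries, as did summed microRNA genes, at 31028 to 36867 and 35038 to 41628 CPM. The class misc_RNA without the 8 symbols summed to 58.1 to 65.98 CPM in Glis2+/+ and 80.96 to 91.99 CPM in Glis2-/- libraries. Small nucleolar RNA summed to 119 to 169 and 177 to 189 CPM, and neither class overlapped between genotypes. The genes that share a stretch of sequence with Rn7sk or Rn7s1 were not left out and may belong to misc_RNA. Those of Rn7sk had 408 to 584 counts in Glis2+/+ and 824 to 1237 counts in Glis2-/- libraries. Those of Rn7s1 had 499 to 588 and 619 to 947 counts. How much of the misc_RNA sum and of its 27 positive values came from these genes was not tested. Summed small Cajal body RNA was 46.2 to 61.9 CPM in Glis2+/+ and 81.7 to 108 CPM in Glis2-/- libraries, again without overlap. Summed ribosomal RNA, which the library kit cleaves away, was 19740 to 23796 CPM in Glis2+/+ and 24157 to 30041 CPM in Glis2-/- libraries, also without overlap. All 6 immune markers were detected in every library. Their sum was 23.8 to 48.8 CPM in Glis2+/+ and 56.3 to 109 CPM in Glis2-/- libraries, also without overlap. Of the 6, 0 were called by edgeR, with 3 at an unadjusted p under 0.05, against 1130 of all 21236 genes tested. By DESeq2, 1 was called, against 0.165% of all genes. Ptprc, the gene of CD45, had 9.56 ± 1.52 CPM in Glis2+/+ and 22.7 ± 13.9 CPM in Glis2-/- libraries, and Cd74, a chaperone of antigen presentation, had 16.7 ± 7.32 and 39.4 ± 11.9 CPM. Both were higher in every Glis2-/- library than in any Glis2+/+ library, as were 6.23% of all genes tested. The genotypes overlapped for Cd3e (log2 fold change 1.17 ± 0.97), Csf1r (0.37 ± 0.35) and Cd68 (-0.19 ± 0.44). The log2 fold change was negative for 4 of 4 adipocyte markers (median -0.74), 3 of 3 skeletal muscle markers (median -1.61) and 5 of 6 fibroblast markers (median -0.39). In these 3 lists 0 genes were called by edgeR or DESeq2, and an unadjusted p under 0.05 was found for 1 adipocyte, 1 skeletal muscle and 0 fibroblast markers. Their sums overlapped between genotypes, at 52.3 to 308 and 92.5 to 263 CPM for adipocyte, 3.68 to 33.7 and 6.63 to 10.1 CPM for skeletal muscle and 2293 to 7727 and 2585 to 5884 CPM for fibroblast markers, in Glis2+/+ and Glis2-/- libraries respectively. Most of the adipocyte sum was Fabp4, at 176 and 167 CPM on average. Adipoq (2.40 and 0.538 CPM) was lower in every Glis2-/- library than in any Glis2+/+ library, as were 5.5% of all genes tested. Plin1 (10.0 and 3.87 CPM), Fabp4 and Cidec overlapped. Endothelial and erythroid marker sums also overlapped, at 96.1 to 547 and 155 to 575 CPM for the 4 endothelial and 2.91 to 8.07 and 4.74 to 14.0 CPM for the 3 erythroid markers, with 0 called by edgeR or DESeq2 and 0 at an unadjusted p under 0.05 in either list. In both genotypes replicate 2 stood apart, with the lowest fibroblast, endothelial, adipocyte and erythroid marker sums of its genotype. The log2 fold change of Rn7sk was 1.08 without Glis2+/+ replicate 2 and 0.97 without Glis2-/- replicate 2. The part of ribosomal RNA removal, of short RNA recovery and of immune or stromal cells in the levels of Rn7sk and the other RNAs was not tested.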

How the data were processed

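The authors prepared total RNA libraries with a stranded low-input kit and estimated transcript abundance with Salmon 1.2.1 on an mm10 transcriptome. They assembled gene values with tximport. The deposited estimated counts are whole numbers, not scaled for library size. The deposited log2 values are TPM with an offset of 1, and were used in 1 alternative, since a short gene dominates TPM. Salmon keeps 1 of several identical transcripts, so a row can stand for several genes. Symbols, positions and sequences came from GENCODE M21 (54166 of 54418 genes had a symbol). The study's methods name an Ensembl annotation for the transcripts that Salmon used. Shared stretches and nested records may therefore differ from those that Salmon saw.

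Counts were filtered with filterByExpr, normalized by TMM and compared by edgeR 4.0.16 in R 4.3.3 (quasi-likelihood test, genotype alone, Benjamini-Hochberg adjustment). The study's methods name DESeq2 with apeglm, which was an alternative here (DESeq2 1.42.0, apeglm 1.24.0), as were limma 3.58.1, other normalizations and filters, summed copies, a replicate block and leaving out each library. The functions were tested on simulated data. The 8 RNAs and the lists were chosen with earlier results of these data known. Genes named are the 8 RNAs, the other RNA polymerase III RNAs tested (at most 6 5S copies), the 2 highest and 2 lowest log2 fold changes of each other list, the 6 profiles nearest to Rn7sk, Glis2 and neighbouring genes. The marker genes and the type classes named were chosen for the check of other cell types and RNAs. The counting error of these depths is small for Rn7sk and large for rows with few counts. The values of 1 immune marker and the sequence of Rn7s1 are not reported here.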

Additional observations from a re-analysis of the deposited data

How the results depend on the processing

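The 6 values for Rn7sk, Rpph1, Rprl3, Rmrp, Rn7s1 and their median kept their direction and stayed within the spread between replicates in all 94 values from 16 alternatives, 2 of which (sums over records and over sharing genes) were chosen after seeing the data. The median of 0.81 ran from 0.61 on log2 TPM values in limma to 0.81 in DESeq2, and from 0.64 to 0.95 with 1 library left out at a time. On log2 TPM values Rn7sk was at 0.80, Rprl3 at 0.72, Rpph1 at 0.61, Rmrp at 0.24 and Rn7s1 at 0.23. Those of Rmrp and Rn7s1 were lower than in the main fit by more than 1.5 times. Correlations of deviations between libraries of the same replicate number were -0.0218, 0.173 and 0.0233. Other pairs were not compared, so whether the replicate numbers pair the libraries was not settled. With a replicate block the median was 0.79 and 0 genes were called. The count of genes called over all genes was 45 in DESeq2 and 40 without a low-count filter, against 0 in edgeR. The list medians stayed within 1 SD of the replicates in 86 of 91 values, but several were near 0 and moved by more than 1.5 times. With 1 library left out at a time they ran from 0.034 to 0.38 for the other RNA polymerase III RNAs, 0.092 to 0.40 for short RNAs of RNA polymerase II, 0.024 to 0.11 for the 7SK partners, -0.12 to -0.042 for RNase P and RNase MRP proteins, -0.086 to -0.019 for the signal recognition particle, -0.017 to 0.030 for polymerase subunits and -0.056 to 0.0024 for factors. On log2 TPM values the medians were 0.0019 for the other RNA polymerase III RNAs, -0.019 for short RNAs of RNA polymerase II, -0.11 for the signal recognition particle, -0.11 for the 7SK partners, -0.22 for RNase P and RNase MRP proteins, -0.19 for polymerase subunits and -0.16 for factors, and without Glis2+/+ replicate 1 that of RNase P and RNase MRP proteins was -0.12. Of 440 values of named genes, 21 changed sign. On log2 TPM values Bc1 was at -0.15, Rny3 at -0.072, n-R5s124 at -0.014, Ccnt1 at -0.45, Hexim2 at -0.059 and Snapc1 at -0.024. Ccnt1 was also at -0.0027 with DESeq2 size factors, -0.0012 in DESeq2, -0.0099 with at least 10 counts in every sample and -0.028 with library totals. With 1 library left out at a time, the ranges were -0.076 to 0.14 for Bc1, -0.075 to 0.26 for Rny3, -0.0046 to 0.37 for n-R5s124, -0.098 to 0.054 for Ccnt1, -0.0035 to 0.27 for Rpp14, -0.030 to 0.33 for Snapc1 and -0.61 to 0.71 for Rnu3a. The following kept their sign but moved by more than 1.5 times when 1 library was left out: Vaultrc5 (0.075 to 0.77), Rny1 (0.15 to 0.46), n-R5s115 (0.067 to 0.39), n-R5s56 (0.20 to 0.69), n-R5s109 (-0.44 to -0.069), n-R5s156 (0.023 to 0.41), Larp7 (-0.34 to -0.17), Hexim2 (0.16 to 0.77), Rpp25l (0.29 to 0.62), Srp19 (-0.29 to -0.074), Srp9 (-0.29 to -0.071), Srprb (0.16 to 0.50), Polr3k (-0.32 to -0.065), Polr2f (0.056 to 0.22), Crcp (0.049 to 0.38), Snapc5 (-0.43 to -0.13), Gtf3a (-0.40 to -0.19) and Gtf3c5 (0.14 to 0.44). Rnu5g was at -3.06 on log2 TPM values and at -0.83 without Glis2-/- replicate 1, and without Glis2-/- replicate 3 the remaining Glis2-/- libraries were at 0 counts, so no fold is given. The causes were not tested. With 3 libraries per genotype and a biological coefficient of variation of 37.4%, small differences were not detectable, and rows with few counts, such as those of Rprl1 and Rprl2, allow no statement on direction.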
